A study of Mus musculus with 3 samples.

Results

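Prg4-high lining fibroblasts are stromal cells rich in transcripts of Prg4, the lubricin gene. In the inflamed knee synovium of mice, 257 barcodes of 38722 kept barcodes met their rule. A member held at least 1% of its unique molecular identifiers (UMIs, counts of single captured RNA molecules) as Prg4, and at least 3 of Clic5, Col22a1, Htra4, Tspan15 and Hbegf. Its Saa3 and Hp UMIs together stayed under 2%, no more than 2 of the cycling genes Mki67, Top2a, Ube2c, Cenpf and Birc5 were seen, and no more than 1 Csf1r UMI. Barcodes with fewer than 200 genes or over 20% mitochondrial UMIs were left out. Members were thus chosen by measured values of these genes.

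All samples were one group. They came from wild type C57BL/6 females, used from 8 weeks of age, with collagen- and antibody-induced arthritis: each received 100 µg of type II collagen at day 0, 1 mg of an antibody mix against it at day 21 and lipopolysaccharide at day 22. Knee synovium of 6 mice was digested with collagenase and DNase, pooled from 2 mice per library, and profiled in droplets as 3 libraries, B1, B2 and B3. No untreated mice are in these samples, so the values describe arthritic tissue and carry no effect of the disease, and each library mixes 2 animals.

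The synovial lining is a thin layer of fibroblasts and macrophages at the joint cavity, without a basement membrane. Its fibroblasts secrete lubricin, the product of Prg4, and hyaluronan, the long sugar chain made by the Has enzymes, which together lubricate cartilage and give joint fluid its viscosity. Fibroblasts deeper in the tissue, the sublining, carry Thy1 and surround the vessels, and in arthritis the lining layer is known as a site of matrix-degrading enzymes.

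Members numbered 58 in B1, 78 in B2 and 121 in B3. They made up 0.487% (exact 95% binomial interval 0.370 to 0.629), 0.675% (0.534 to 0.841) and 0.794% (0.659 to 0.948) of the kept barcodes. Of 2479 barcodes with at least 1% Prg4, 490 also held 3 of the other lining genes, 432 of these were under the acute-phase limit, 310 were not cycling, and 53 of those were lost to Csf1r. Members were deep, with medians of 19547, 18116.5 and 11992 UMIs in B1, B2 and B3, while all kept barcodes had medians of 4917, 4742 and 5282 UMIs. A rule that asks for 3 detected genes favours deep barcodes: when every barcode was first thinned to 2000 UMIs, 80 met it.

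The values that chose the members are given as a description. Prg4, the lubricin gene, took a median of 3.33%, 3.84% and 3.33% of UMIs in the members of B1, B2 and B3, with a highest value of 17.4% in B1, 11.9% in B2 and 13.9% in B3. In B3 the 5 members nearest the limit held 1.00% to 1.11% Prg4, and the 5 barcodes just under it, which met every other criterion, held 0.845% to 0.986%. Col22a1, a collagen of tissue junctions, was seen in 98.3%, 100% and 99.2% of members, and Hbegf, a ligand of the epidermal growth factor receptor, in 91.4%, 97.4% and 96.7%. Clic5, of the chloride intracellular channel family, reached 46.6%, 46.2% and 52.9%, and the serine protease gene Htra4 27.6%, 30.8% and 30.6%. Saa3 and Hp, which encode acute-phase proteins, took a median of 0.240%, 0.101% and 0.235%, so the members spread from almost none of these transcripts to just under the limit.

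**Figure D1:**
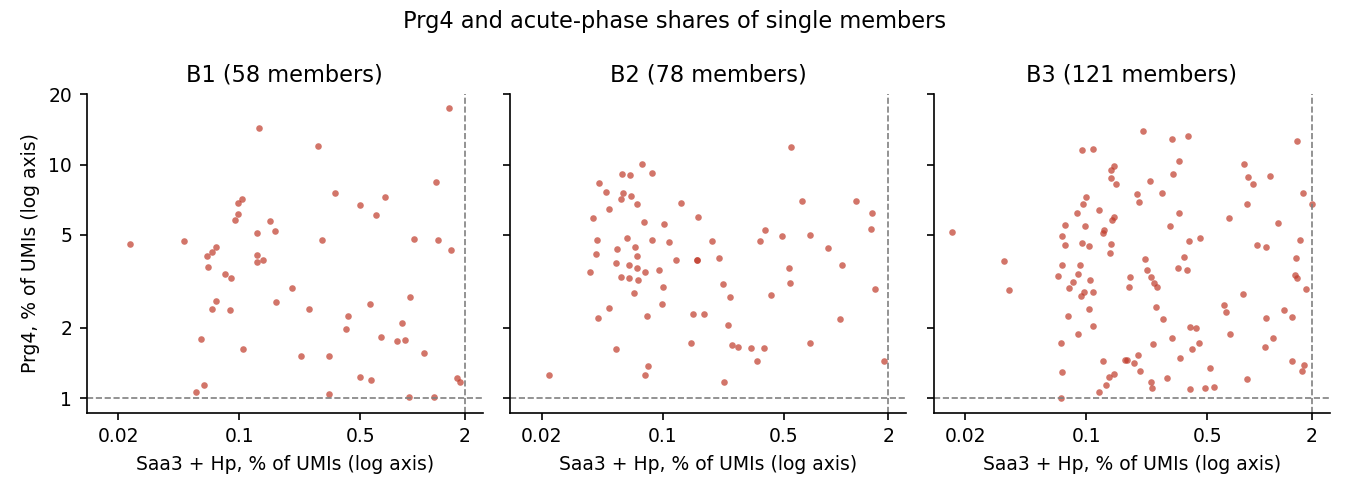
Share of Prg4 (vertical, percent of UMIs, log axis) against the summed share of Saa3 and Hp (horizontal, percent of UMIs, log axis) for each of the 257 members by library, with dashed lines at the limits of the rule. Members fill the range from 1% to 17.4% Prg4, and acute-phase shares run up to 1.99% in B3.

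The label was checked with lining genes that the rule did not use. Cd55, a brake on complement at the cell surface, Has1, a hyaluronan synthase, Creb5, a transcription factor of articular tissue, and Itga6, a laminin receptor, were each higher in members than in the sublining and acute-phase classes in all 3 libraries, while Dnase1l3 had 6 UMIs in all members. Sublining markers were also present: the 6 of them summed to 1030, 966 and 1161 CPM (UMIs per 1000000 UMIs of the class) in members, against 1676, 1563 and 1755 CPM in the sublining class, and free RNA could account for up to 126, 155 and 192 CPM in members. Cd34, one of them, was seen in 64.6% of members, and at 2000 UMIs a barcode in 26.3% of members against 2.98% of neutrophil barcodes. Dcn, Col1a1 and Col1a2, which mark fibroblasts, were seen in every member. Pdgfra, of the same marker list, was seen in 77.6%, 64.1% and 62.0% of members of B1, B2 and B3, and Lum in 87.9%, 83.3% and 86.0%. Detection of abundant matrix transcripts says little alone, since Col3a1 was seen in 91.6% of neutrophil barcodes before thinning. Members held 18.6%, 25.9% and 15.9% of all Has1 UMIs of B1, B2 and B3, from under 1% of the barcodes. At 2000 UMIs a barcode, Has1 was detected in 49.4% of 255 members, against 1.91% of 4704 neutrophil barcodes (percent of barcodes with a UMI), which should lack it; before thinning the shares were 83.3% and 2.93%.

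RNA of other cells was present in the members. Ptprc, a leukocyte gene, was seen in 48.3%, 47.4% and 28.9% of them, and from S100a8 and S100a9, neutrophil transcripts, free RNA could account for up to 16.5%, 19.2% and 23.0% of member UMIs. The 6 macrophage markers summed to 909, 733 and 1132 CPM in members and to 948, 681 and 1175 CPM in the sublining class, and all 6 were detected. Free RNA could account for up to 1046, 897 and 1581 CPM of them in members, more than their sum in each library. Hemoglobin and other erythroid transcripts summed to 618 CPM in B1, against 105 CPM in B2 and 48.3 CPM in B3, with 2 members of B1 above 1% hemoglobin. A doublet score of 0.2 or more was given to 8 members.

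Members were set against 3 other stromal classes of the same libraries. These were 699 Thy1 Cd34 sublining fibroblasts with under 0.5% Prg4, 1532 Saa3 Hp acute-phase fibroblasts with at least 2% of those transcripts and any Prg4, and 149 barcodes of Fmod-high stroma, which lack Cd34. All 3 classes could hold at most 1 UMI each of Csf1r, Ptprc, Pecam1 and Cdh5, whereas members were limited in Csf1r alone. The classes were also less deep than members, with medians of 6314, 9316 and 8884 UMIs in Fmod-high stroma of B1, B2 and B3. UMIs were summed per library and class and compared in 1 edgeR quasi-likelihood fit with the library as a block. Calls needed an adjusted p under 0.05 (Benjamini-Hochberg, over 10768 genes) together with a log2 fold change of 1 or more in size. Genes of any class rule were neither called nor named, but genes that follow a rule's genes from cell to cell differ partly through the choice of cells. Values below follow the order B1, B2 and B3. With the library as a block, the p-values rest on how class differences vary across 3 pooled libraries, and not on the spread between the libraries themselves. A lower level cannot be told apart from fewer expressing cells within a class. Groups are said not to overlap where the ranges of their library sums were apart. How often this held over all genes tested is not given. Many named genes were picked for a large change, which favours a lack of overlap, so it adds little to the fold change.

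The hyaluronan synthase gene Has1 was higher in members than in all 3 classes, and Has2, another synthase, lower. Has1 stood at 562, 935 and 467 CPM in members, against 44.0, 37.4 and 92.8 CPM in the sublining class, 46.0, 30.9 and 43.2 CPM in the acute-phase class and 23.4, 27.2 and 32.3 CPM in Fmod-high stroma. Every member sum was above every sum of the other classes. The log2 fold changes were 3.45 ± 0.27 (SE, edgeR adjusted p = 3.4e-09), 3.82 ± 0.27 (adjusted p = 1.1e-09) and 4.37 ± 0.40 (adjusted p = 4.5e-08). Has2 had 6.14, 3.32 and 2.30 CPM in members against 32.2, 51.3 and 21.1 CPM in the sublining class, a log2 fold change of -3.25 ± 0.31 (edgeR adjusted p = 7.3e-08), and was lower over the acute-phase class (-2.11 ± 0.35) and Fmod-high stroma (-1.75 ± 0.56). The call over Fmod-high stroma ended without B2 (-1.67), without B3 (-1.53), without the library block (-1.77) and with 4 of the other lining genes required (-1.71). Of 8 tested genes of the hyaluronan list, 4 were higher over the sublining class (Has1, Tnfaip6, Ugdh and Cemip) and 2 lower (Has2 and Hyal1). Over all genes tested there, 4.56% were higher and 9.11% lower. Over the acute-phase class and over Fmod-high stroma, 3 of the 8 were higher (Has1, Tnfaip6 and Ugdh) and the same 2 lower. Tnfaip6 encodes a hyaluronan-binding protein and Ugdh an enzyme that makes a hyaluronan precursor, whereas Cemip and Hyal1 act in its breakdown. Over the sublining class the list's median log2 fold change was 0.93, against -0.01 over all genes tested.

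The promoters of 10 genes high in members were looked up in the RefSeq table (GRCm38.p6), of which 8 genes, with 10 start sites, were found. They were searched on both strands for the AP-1 letters TGANTCA and the CRE letters TGACGTCA, which CREB family factors are known to bind. The genes were picked after their values were seen. CRE letters were in 2 of the 10 start sites, those of Has1 and of the 1st Creb5 start, and AP-1 letters in 1, the other Creb5 start. Over all 32851 promoters of the same 300 bases, 1.79% held the CRE letters and 7.81% the AP-1 letters. Those of Has1 and Creb5 are shown because they hold a match, and that of Inhba, a leading gene, as an example without one; capitals mark a match, and no factor binding was measured.
Has1, chr17:17855139-17855438, minus strand: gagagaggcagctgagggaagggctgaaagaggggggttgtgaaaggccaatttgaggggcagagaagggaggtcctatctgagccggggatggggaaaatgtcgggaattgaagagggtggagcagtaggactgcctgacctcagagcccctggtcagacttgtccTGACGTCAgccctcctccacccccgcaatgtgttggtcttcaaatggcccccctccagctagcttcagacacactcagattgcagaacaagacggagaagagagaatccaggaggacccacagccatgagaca
Creb5, chr6:53287053-53287352, plus strand: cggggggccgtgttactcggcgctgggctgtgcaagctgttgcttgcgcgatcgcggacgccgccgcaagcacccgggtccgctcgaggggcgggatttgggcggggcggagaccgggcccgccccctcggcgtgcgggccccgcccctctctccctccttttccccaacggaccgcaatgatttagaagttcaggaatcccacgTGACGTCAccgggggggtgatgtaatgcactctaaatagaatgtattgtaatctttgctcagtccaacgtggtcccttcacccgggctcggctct
Creb5, chr6:53573124-53573423, plus strand: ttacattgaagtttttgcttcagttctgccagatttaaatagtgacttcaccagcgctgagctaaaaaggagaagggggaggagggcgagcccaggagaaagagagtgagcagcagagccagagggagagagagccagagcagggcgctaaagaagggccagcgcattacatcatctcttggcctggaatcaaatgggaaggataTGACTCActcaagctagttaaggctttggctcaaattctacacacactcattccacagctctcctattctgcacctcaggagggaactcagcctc
Inhba, chr13:16011601-16011900, plus strand: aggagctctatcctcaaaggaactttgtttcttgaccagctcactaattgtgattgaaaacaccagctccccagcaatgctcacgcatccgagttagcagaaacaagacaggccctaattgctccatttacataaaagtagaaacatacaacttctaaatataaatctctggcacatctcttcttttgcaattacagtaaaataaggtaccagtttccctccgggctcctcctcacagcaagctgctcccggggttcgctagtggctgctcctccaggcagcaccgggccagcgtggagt

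Over the sublining class, 491 genes were higher in members (4.56% of those tested) and 981 lower (9.11%). Inhba, which encodes the activin A subunit, stood at 536, 1088 and 768 CPM in members against 28.1, 26.8 and 52.0 CPM, a log2 fold change of 4.41 ± 0.26 (edgeR adjusted p = 6.2e-11). F13a1, the A chain of coagulation factor XIII, stood at 579, 626 and 562 CPM against 24.3, 17.0 and 27.3 CPM (log2 4.63 ± 0.14). Neither gene's groups overlapped. Penk, the enkephalin precursor, rose by a log2 fold change of 4.29 ± 0.23, and Slpi, an inhibitor of neutrophil elastase, by 3.52 ± 0.18 to 3330, 4306 and 3747 CPM in members, against 311, 318 and 318 CPM. Both phospholipase genes among the leading genes, Pla2g2e (3.48 ± 0.18) and Pla1a (3.59 ± 0.18), were higher, as was Ptgs1, which encodes cyclooxygenase 1 (3.52 ± 0.21).

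The lower side held matrix and growth factor genes. Igf1, insulin-like growth factor 1, stood at 29.9, 41.1 and 21.3 CPM in members against 900, 837 and 884 CPM in the sublining class, a log2 fold change of -4.92 ± 0.17 (edgeR adjusted p = 2e-14). Its member levels lay under the free RNA limit in all 3 libraries, so free RNA could account for all of them. Of 13 collagens, 7 were lower and 0 higher, with Col14a1 at -3.60 ± 0.16, and of 14 matrix glycoproteins 8 were lower and 2, Fn1 and Tnc, higher. Fn1, fibronectin, stood at 4209, 4465 and 3798 CPM in members against 1192, 1322 and 1353 CPM (log2 1.62 ± 0.09), while Postn, periostin, stood at 67.6, 74.9 and 68.4 CPM against 1335, 1593 and 1242 CPM (-4.37 ± 0.14). Of 8 genes of the IGF system 4 were lower and Igfbp5, a binding protein, higher, at 1515, 2374 and 1756 CPM against 374, 524 and 1068 CPM (1.52 ± 0.20). Of 14 BMP, activin and TGF-beta genes 3 were higher (Inhba, Bmp2 and Fstl3) and 6 lower. Of 9 Wnt regulators 6 were lower, among them the inhibitor Sfrp2 (-4.45 ± 0.24). Notch3, a receptor on mural cells, was lower (-3.78 ± 0.21), and the pericyte markers, which include it, summed to 185, 115 and 114 CPM in members against 879, 407 and 395 CPM in the sublining class; their part in the result was not tested.

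Surface and adhesion genes divided. Pdpn, podoplanin, stood at 687, 718 and 645 CPM in members against 176, 151 and 178 CPM in the sublining class (log2 1.96 ± 0.11, edgeR adjusted p = 2.9e-11). Cdh11, the cadherin known for fibroblast contacts in the lining, was lower in members, at 12.3, 11.3 and 13.2 CPM against 141, 144 and 94.5 CPM (-3.40 ± 0.18, adjusted p = 1.3e-11), and Vcam1, a leukocyte adhesion receptor, stood at 23.8, 19.2 and 19.5 CPM against 56.1, 45.5 and 38.0 CPM (-1.22 ± 0.16). None of these groups overlapped. Of 12 tested surface genes 4 were higher (Itga6, Cd151, Pdpn and Cd9) and 3 lower (Cdh11, Ncam1 and Vcam1). Among all genes tested, 4.56% were higher and 9.11% lower. Cd44, the hyaluronan receptor, had a log2 fold change of 0.60 ± 0.09, under the size needed for a call.

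Inflammatory genes went both ways over the sublining class. Cxcl1 and Cxcl3, which attract neutrophils, were higher: Cxcl1 stood at 365, 415 and 529 CPM in members against 77.4, 50.8 and 79.6 CPM (log2 2.61 ± 0.16), and Cxcl3 had a log2 fold change of 4.59 ± 0.23. Of 16 chemokines 3 were higher (Cxcl1, Cxcl9 and Cxcl10) and 7 lower, among them Cxcl12, which retains leukocytes in tissue, at 203, 178 and 294 CPM against 649, 619 and 438 CPM (-1.40 ± 0.16). Il1rl1, the receptor for interleukin 33, was higher (1.65 ± 0.22), and Il33 itself lower (-1.79 ± 0.20). Of 11 complement genes 7 were lower and Cd55 higher, at 124, 136 and 112 CPM in members against 32.2, 44.8 and 55.1 CPM (1.42 ± 0.15). None of the 11 genes of NF-kB and gp130 feedback was called in either direction. The shares over all genes tested were 4.56% higher and 9.11% lower, and 11 genes are few against them.

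Il6, the cytokine, stood at 74.5, 39.8 and 35.6 CPM in members against 24.6, 11.7 and 9.0 CPM in the sublining class, a log2 fold change of 1.69 ± 0.17 (edgeR adjusted p = 1.5e-07). The call ended in the 88 members without a Csf1r, Ptprc, Pecam1 or Cdh5 UMI (log2 0.38) and with at least 4 of the other lining genes required (0.44). Those 88 were few and shallower than all members: 13, 25 and 50 in B1, B2 and B3, with medians of 15067, 12935 and 9637.5 UMIs. At 2000 UMIs, Il6 was seen in 5.49% of 255 members, against 0.531% of 4704 neutrophil barcodes (percent of barcodes with a UMI). Timp1, an inhibitor of matrix metalloproteinases, stood at 7808, 10662 and 6503 CPM in members against 3024, 2557 and 2229 CPM (1.62 ± 0.14), and its log2 fold change was 0.84 in those 88 members. Mmp3, stromelysin, did not pass, at 2058, 629 and 877 CPM against 1216, 783 and 728 CPM (0.21 ± 0.16, adjusted p = 0.37), with overlapping groups, and Mmp13, a collagenase, was lower at 61.4, 17.2 and 31.6 CPM against 100, 63.2 and 83.2 CPM (-1.30 ± 0.30), a call that DESeq2 did not make.

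**Figure D2:**
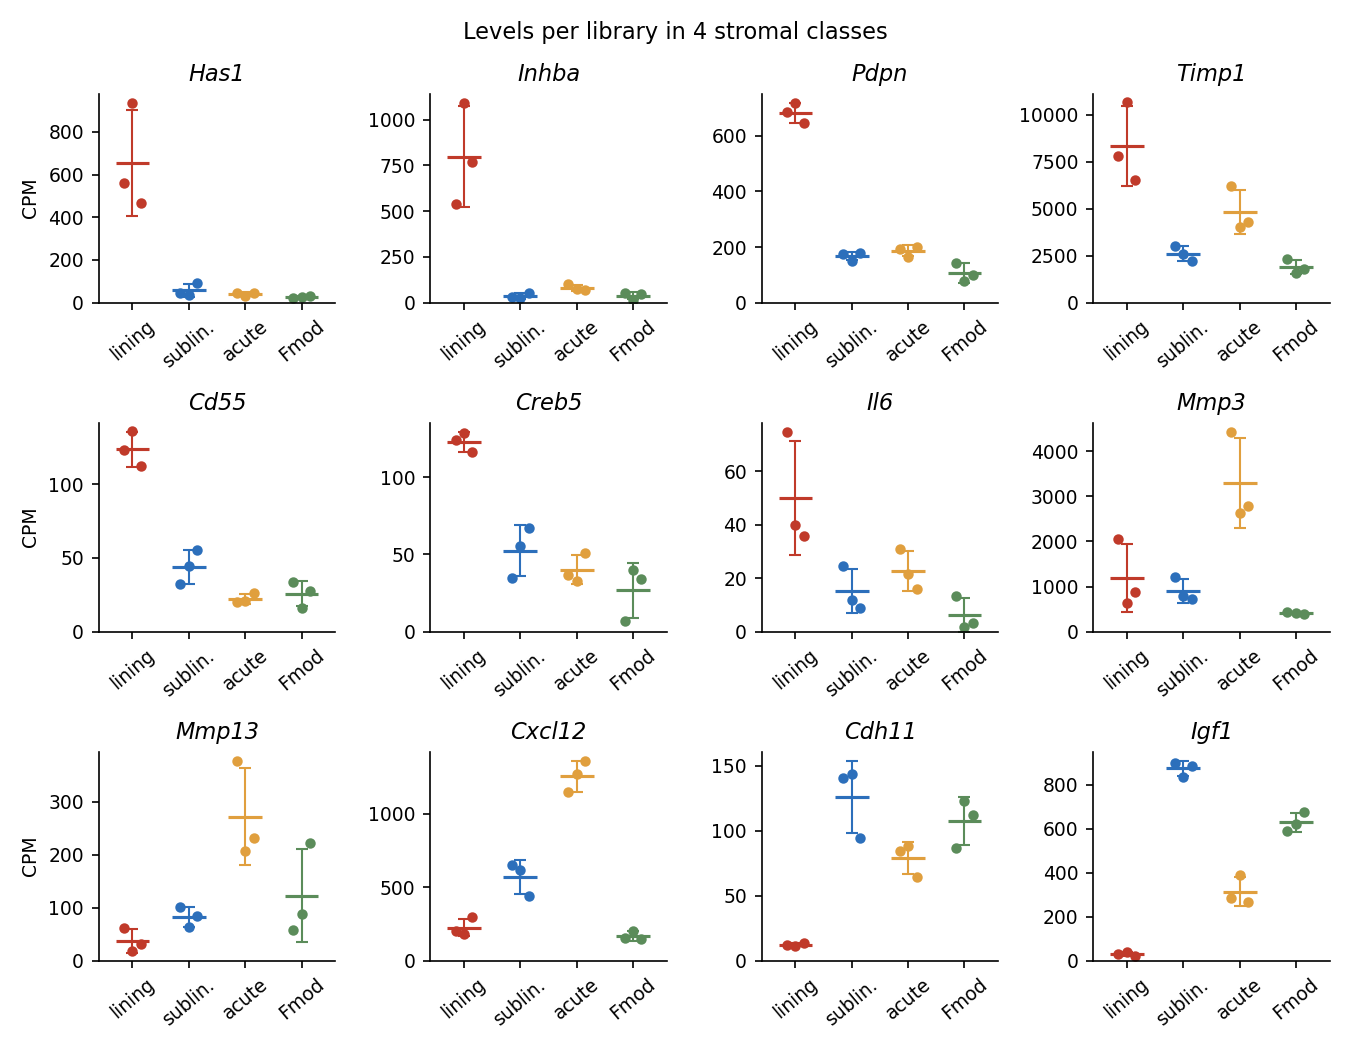
Level of 12 genes (CPM) in each of 3 libraries (points), with mean and SD (bar and whiskers), for Prg4-high lining members, Thy1 Cd34 sublining, Saa3 Hp acute-phase and Fmod-high stroma. Has1, Inhba, Pdpn and Cd55 are highest in members, Mmp3, Mmp13 and Cxcl12 in the acute-phase class, and Igf1 in the sublining class.

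Among 14 joint fibroblast transcription factors, Foxo1 (2.05 ± 0.15), Sox5, Creb5 and Klf4 were higher and Twist1 (-1.44 ± 0.16) lower, although the median log2 fold change of the list was -0.49, against -0.01 over all genes tested. Creb5 stood at 124, 129 and 116 CPM in members against 34.9, 55.8 and 66.9 CPM (1.16 ± 0.18); its call ended without B1 (0.93) and after thinning to 2000 UMIs (0.70). Of 10 glycolysis and hypoxia genes 4 were higher and 0 lower, with the glucose carrier Slc2a1 at 45.3, 45.8 and 46.0 CPM against 15.9, 14.4 and 15.2 CPM (1.52 ± 0.16); in the 88 members without leukocyte or endothelial UMIs its value of 0.99 missed the call. H2-D1, an MHC class I heavy chain, was 597, 492 and 999 CPM in members against 281, 233 and 353 CPM (1.16 ± 0.10), and 3 of 9 MHC genes were higher. Among 13 immediate early genes, which respond to dissociation, Fosl1 (2.30 ± 0.19) was the one called. Beside these list counts, 4.56% of all genes tested were higher and 9.11% lower.

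Over the acute-phase class, which held 10001, 11714 and 11335 CPM of Prg4, 394 genes were higher in members (3.66% of those tested) and 768 lower (7.13%). With library totals alone as the scale, the split was 612 higher and 598 lower, and the log2 fold change of all genes then had a median of 0.20. Slurp1 (5.10 ± 0.36), Penk (5.01 ± 0.23), Has1 and Ntn4, a netrin (3.69 ± 0.18), led the higher genes. Inhba stood at 536, 1088 and 768 CPM in members against 99.1, 76.2 and 68.8 CPM (3.07 ± 0.24), and Gfpt2, an enzyme of the hexosamine pathway that feeds sugar chains, at 387, 523 and 473 CPM against 40.7, 37.2 and 39.6 CPM (3.34 ± 0.12). Neither overlapped. Timp1 (0.59 ± 0.14), Il6 (0.91 ± 0.15) and Cd44 (0.93 ± 0.09) stayed under the size needed. With library totals alone Il6 (1.12) and Cd44 (1.14) passed, and Cd44 also did without B3 (1.04), after subtraction of free RNA (1.28) and with 4 of the other lining genes required (1.15).

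Most chemokines and complement genes and 7 of 17 matrix proteases were lower in members than in the acute-phase class. Mmp3 stood at 2058, 629 and 877 CPM in members against 4438, 2643 and 2791 CPM (log2 -1.78 ± 0.17, edgeR adjusted p = 6.2e-08), and Mmp13 at 61.4, 17.2 and 31.6 CPM against 377, 207 and 232 CPM (-3.14 ± 0.28). Neither overlapped; among the other proteases Plau was higher, and 9 were not called. Of 16 chemokines 11 were lower and 0 higher, with Cxcl12 at 203, 178 and 294 CPM against 1144, 1268 and 1356 CPM (-2.68 ± 0.16). Of 11 complement genes 10 were lower and Cd55 higher (2.26 ± 0.16). C4b stood at 41.5, 40.5 and 48.3 CPM against 681, 932 and 488 CPM (-4.21 ± 0.23), and Serping1, the inhibitor of C1, at 349, 261 and 221 CPM against 1758, 1838 and 1585 CPM (-2.86 ± 0.16).

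Adipocyte markers moved with this comparison. Adipoq, Plin1 and Cfd summed to 23.8, 22.6 and 17.8 CPM in members, against 3144, 5930 and 1437 CPM in the acute-phase class, and Car3 (-7.53 ± 0.25), Cfd (-7.50 ± 0.20) and Adipoq (-6.97 ± 0.22) led the lower genes. A subset of 322, 219 and 788 acute-phase barcodes, without an Adipoq UMI and with a low Cfd share, was chosen after seeing the data. Car3 (-0.44) was not called there, whereas C4b (-2.74), Mmp3 (-1.91) and Cxcl12 (-2.67) were. Cfd (-0.44) was not called either, but its share was part of the criterion.

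Over Fmod-high stroma, 610 genes were higher in members (5.66% of those tested) and 816 lower (7.58%), and 902 higher and 663 lower with library totals alone, a scale on which all genes had a median log2 fold change of 0.19. Pla1a was at 0 in all 3 Fmod-high sums and had 525 UMIs in members, at least 57.8-fold higher over a floor of 3 UMIs for the class. Sox5, a chondrogenic factor, stood at 241, 264 and 210 CPM in members against 20.1, 18.1 and 29.2 CPM (log2 3.15 ± 0.19). Mmp3 was higher here, at 2058, 629 and 877 CPM against 432, 415 and 384 CPM (1.18 ± 0.18), but not without B1 (0.72), with 4 of the other lining genes required (0.23), in the 88 members without leukocyte or endothelial UMIs (0.47) or without cartilage or bone UMIs in the Fmod-high class (0.94). Il6 (3.08 ± 0.37), Cxcl1 (3.92 ± 0.26) and the aggrecanase gene Adamts5 (1.93 ± 0.24) were higher, although Il6 (3.02) was not called after thinning. Cxcl12 (0.25 ± 0.20) and Vcam1 (-0.64 ± 0.26) were not called.

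Tendon and cartilage matrix genes led the lower side of that comparison. Comp, a cartilage and tendon matrix protein, stood at 113, 80.3 and 134 CPM in members against 4556, 3364 and 3250 CPM (log2 -5.26 ± 0.15). Acan, aggrecan, had a log2 fold change of -6.67 ± 0.22 and Tnmd, tenomodulin, one of -6.30 ± 0.49. Of 13 collagens 8 were lower, and of 14 matrix glycoproteins 9. Chondrocyte markers summed to 53.7, 57.0 and 58.1 CPM in members against 2621, 1199 and 1300 CPM in the Fmod-high class, and osteoblast markers to 13.1, 9.29 and 5.17 CPM against 1613, 194 and 352 CPM; their part in the result was not tested. Without barcodes holding Col2a1, Ibsp or Bglap, 1390 genes were called instead of 1426.

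**Figure D3:**
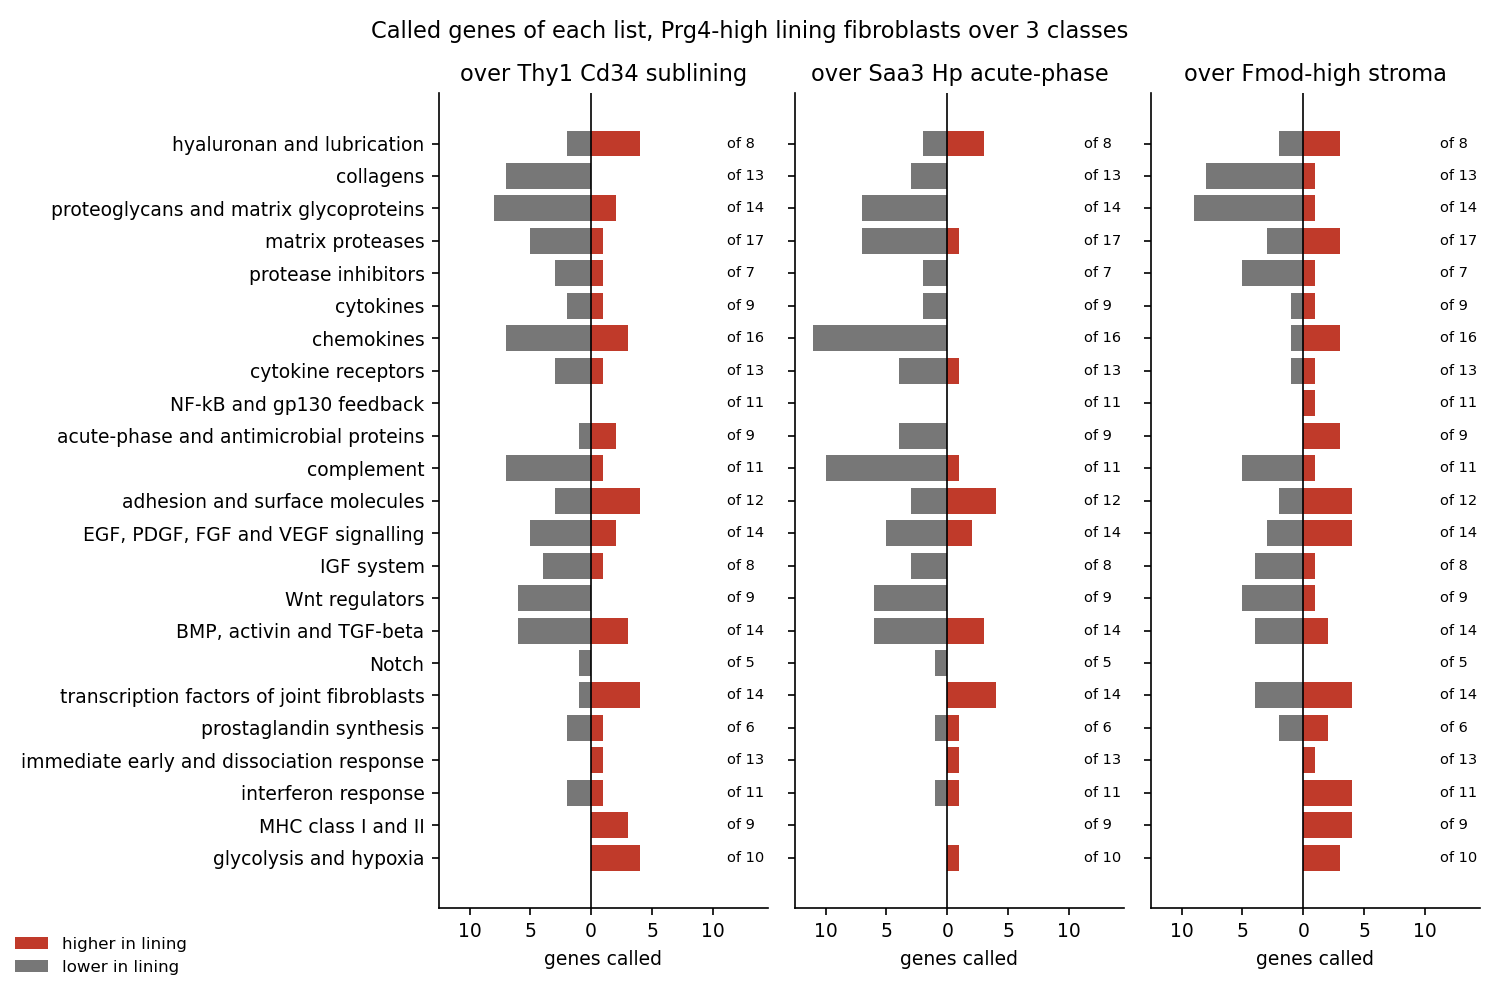
Number of called genes of each list (horizontal, genes) that were higher (red, to the right) or lower (grey, to the left) in Prg4-high lining fibroblasts than in each of 3 classes, with the number tested at the right. Complement and chemokines are mostly lower over the acute-phase class, with 10 of 11 and 11 of 16, while the matrix glycoprotein list has more lower than higher calls in all 3 panels.

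Members also varied among themselves. Within each library they were split into 3 ranges of nearly equal size by Prg4 share, of 19 or 20 cells in B1, 26 in B2 and 40 or 41 in B3, and the upper range was set against the lower with a call at a log2 fold change of 0.5. A range is not a cell type. Prg4 share is also a value of the rule, so genes that follow Prg4 from cell to cell differ through the cut itself. The p-values therefore describe which genes go with Prg4 among members and do not test a separate grouping. Among 5915 genes, 49 were higher in the Prg4-rich range (0.828%) and 44 lower (0.744%). With library totals alone the split was 40 higher and 62 lower. Gfpt2 stood at 588, 771 and 583 CPM in the upper range against 161, 216 and 245 CPM in the lower (log2 1.70 ± 0.16, edgeR adjusted p = 1.5e-05), and Fn1 at 5746, 6288 and 5882 CPM against 2378, 3110 and 2390 CPM (1.24 ± 0.14). Has1 stood at 775, 1623 and 576 CPM against 318, 242 and 345 CPM (1.62 ± 0.25). None of these groups overlapped.

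Rgs5, a pericyte marker, was higher with Prg4, at 310, 137 and 202 CPM in the upper range against 67.9, 63.1 and 45.7 CPM (log2 1.89 ± 0.22), and the 4 pericyte markers, which include it, summed to 329, 153 and 211 CPM against 99.0, 97.6 and 64.0 CPM; their part in the result was not tested. Gfpt2, Fn1, Has1 and Rgs5 were called without each library in turn; Has1 was not called after subtraction of free RNA (1.51). The call of Inhba (1.55 ± 0.33) ended without B2 (1.43), by DESeq2 (1.54), without the library block (1.59) and after subtraction of free RNA (1.52). The count of calls fell to 34 without B2 and 18 without B3. Hba-a2 (3.49 ± 0.46) rested on B1, at 439 CPM in the upper range against 21.4 CPM, where 2 members held over 1% hemoglobin, and was not called by DESeq2 or without the library block.

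Ranges by acute-phase share gave more calls, and here too genes that follow Saa3 and Hp from cell to cell differ through the cut itself. Among 5852 genes, 113 were higher in the Saa3 and Hp rich range (1.93%) and 95 lower (1.62%), or 89 and 139 with library totals alone. Without B2 the count was 69. Cxcl12 stood at 392, 246 and 565 CPM in the upper range against 44.5, 76.8 and 102 CPM in the lower (log2 2.51 ± 0.26, edgeR adjusted p = 8.4e-06), and Serping1 at 518, 440 and 322 CPM against 201, 161 and 120 CPM (1.51 ± 0.16), a call that ended after thinning to 2000 UMIs (0.68). Chl1, a neural adhesion molecule, was higher at 2.58 ± 0.22, and Cfb, complement factor B, at 1.5 ± 0.20. Of 10 tested chemokines 6 were higher and 0 lower, and of 8 complement genes 4 were higher and 1, Cd55, lower. Cxcl9, an interferon-induced chemokine, stood at 469, 17.2 and 541 CPM against 14.8, 5.62 and 54.1 CPM (3.85 ± 0.36), higher in each library though the groups overlapped.

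The Saa3 and Hp rich range also held less Prg4, with medians of 2.10%, 3.02% and 2.64% of UMIs against 3.73%, 4.25% and 3.73% in the lower. The 2 cuts are thus not separate, and the part of Prg4 in these results was not tested. Has1, Inhba and Cd55 were lower in the Saa3 and Hp rich range. Has1 stood at 200, 381 and 188 CPM in the upper range against 1048, 1637 and 601 CPM in the lower (log2 -1.99 ± 0.21, edgeR adjusted p = 1.4e-05), Inhba at 210, 534 and 304 CPM against 754, 1832 and 1557 CPM (-1.91 ± 0.24), and Cd55 at 64.7, 74.3 and 58.1 CPM against 210, 238 and 162 CPM (-1.53 ± 0.20). None of these groups overlapped. Of 6 tested hyaluronan genes 4 were lower (Has1, Ugdh, Tnfaip6 and Cd44) and 0 higher, and of 10 joint fibroblast factors 4 were lower, with Sox5 at -1.28 ± 0.16. Mgll, monoacylglycerol lipase, had a log2 fold change of -1.95 ± 0.19. Has1, Inhba, Cd55, Sox5 and Cxcl12 were called under every alternative in which they were tested, and thinning left 833 genes to test. Every alternative kept the same cut by Saa3 and Hp share, so none tests the cut itself. Creb5 (-0.70 ± 0.19) was lost without any 1 library and Pdpn (-0.54 ± 0.15) without B2 or B3, and both by DESeq2, without the library block and after subtraction of free RNA. Pdpn was also lost after thinning (-0.33). Cd44 was lost without the block (-0.78), without B2 (-0.71) and after thinning (-0.49). Itga6 was not called, with a log2 fold change of -1.24 ± 0.39 (edgeR adjusted p = 0.097).

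Mmp3 had 908, 1534 and 1040 CPM in the Saa3 and Hp rich range against 3533, 163 and 527 CPM, Il6 136, 34.3 and 21.4 CPM against 33.9, 30.0 and 67.3 CPM, and neither was called, although Mmp3 passed without B1 (2.41) and without the filter on low counts (0.94). Neutrophil markers summed to 2166, 9263 and 1470 CPM in the upper range against 2411, 3531 and 1615 CPM in the lower, and sublining markers, which include Cxcl12, to 1181, 890 and 1410 CPM against 1086, 1120 and 962 CPM. Their part in these results was not tested.

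**Figure D4:**
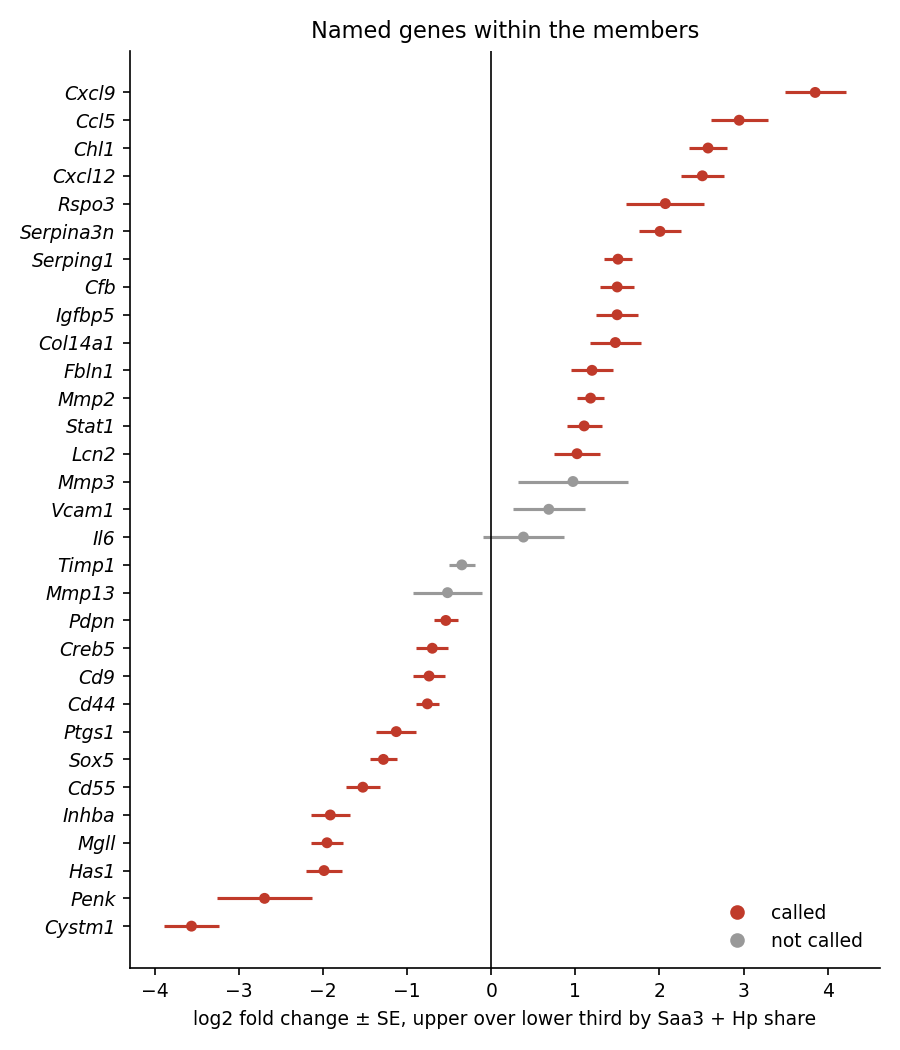
Log2 fold change with SE (horizontal) of the named genes that were tested (vertical) in the upper over the lower range of members by Saa3 and Hp share, with called genes in red and others in grey. Cxcl9 (3.85) and Cxcl12 (2.51) lie to the right, and Has1 (-1.99), Inhba (-1.91) and Cd55 (-1.53) to the left.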

How the data were processed

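Single-cell RNA-seq libraries of pooled knee synovium were made with a droplet kit, per the labels' protocols. The authors deposited raw counts of UMIs for each gene in each barcode, made with PISA 1.0, per the file headers; Seurat 3.0.2, R 3.6 and the build GRCm39 (mm39) are named per the submitters' processing notes. For the aligner and annotation: not given in the sources used here. Matrices held 11939, 11602 and 15263 barcodes with totals of 101384374, 99782608 and 116125707 UMIs, while the labels state 11111, 10668 and 14363 cells. The lowest barcode held 1000 UMIs. Of 24357 symbols 21479 were in all 3 matrices; others were taken as 0 where missing. Barcode names are running names, 6784 of which occur in at least 2 libraries, so shared names do not show shared cells.

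Members and comparison classes were chosen by rules on UMIs of single barcodes. The comparison classes needed at least 3 of Pdgfra, Dcn, Col1a1, Col1a2 and Lum and at most 1 UMI each of Csf1r, Ptprc, Pecam1 and Cdh5. Members, lists and markers were chosen with earlier results of these data known. Doublets were kept; leaving out Scrublet scores of 0.2 or more (scanpy 1.11.5) was an alternative. Sums per library and class were tested by the two-sided quasi-likelihood F-test of edgeR 4.0.16 (R 4.3.3) after filterByExpr and TMM, with the library as block since sums of a library come from the same mice, in 1 fit of all classes or 1 of the 3 ranges. The SE is the log2 fold change over the root of F. CPM levels are scaled to the total UMIs of a class and fold changes by TMM. The script was tested on simulated data. Named genes were the called gene of each list with the largest change each way at 20 CPM or more, the 8 (ranges: 5) largest each way at 100 CPM or more, and 14 genes always named. The free RNA limit is the share of S100a8 and S100a9 UMIs in a class over their share in its whole library. Intervals cover counting error only. Alternatives were DESeq2 1.42.0, other scaling, filters, depth, rules and leaving out a library.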

Additional observations from a re-analysis of the deposited data

How the results depend on the processing

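The 257 members became 193 with at least 2% Prg4, 509 with 2 other lining genes, 110 with 4 and 80 when barcodes were thinned to 2000 UMIs before the rule. In the class comparisons, calls over the sublining, acute-phase and Fmod-high classes kept within 1.5 times their number except after thinning, which left 4305 genes to test and 602, 478 and 561 calls. A similar count does not mean the same genes. With members without leukocyte or endothelial UMIs, 970 of 1472, 721 of 1162 and 991 of 1426 main calls were kept. Leaving out a library gave 1282 to 1463, 960 to 1150 and 1133 to 1309 calls. Without the replicate block, a pairing that holds because sums of a library share mice, there were 1419, 1083 and 1351 calls, and 37 and 131 for the ranges by Prg4 and by Saa3 plus Hp. For those ranges DESeq2 gave 50 and 91, no filter on low counts 182 and 313, thinning 25 and 43, subtraction of free RNA 37 and 68, and leaving out a library 18 to 93 and 69 to 160. The 93 calls of the Prg4 ranges without B1 shared 58 genes with the 93 main calls. The cause of these shifts was not tested.

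Among the named genes, the only ones whose signs were followed through the alternatives, reversed signs concerned genes with no call, apart from 2. Adipoq over the acute-phase class turned to 5.46 without barcodes holding Adipoq UMIs or a high Cfd share. Ibsp over Fmod-high stroma turned to 6.06 without barcodes holding Col2a1, Ibsp or Bglap. Both reversals are by construction, since UMIs of the gene itself were part of the criterion. Over the sublining class Mmp3 was -0.089 to 0.47 with a library left out (lowest without B1), -0.0034 after thinning, -0.77 with 4 lining genes and -0.52 in members without leukocyte or endothelial UMIs, an alternative chosen after seeing the data, as were the adipocyte and cartilage ones. Over the acute-phase class Il6 was -0.33 with 4 lining genes and -0.39 in those members, and Timp1 -0.18. Over Fmod-high stroma Cxcl12 was -0.089 to 0.57 with a library left out (lowest without B3), -0.17 with 2% Prg4 and -0.50 with 4 lining genes. In the Prg4 ranges Cd44 was 0.0089 without the filter, 0.059 without the block, -0.30 to 0.27 with a library left out and 0.21 after thinning. Mmp3 was 0.045 without the block and -1.32 to 0.59 with a library left out, and Vcam1 -0.90 to 0.29. In the Saa3 plus Hp ranges, leaving out a library gave -0.77 to 1.40 for Il6 and -1.23 to 0.68 for Mmp13, while Mmp3 was -0.19 without the block and -0.53 to 2.41 with a library left out.

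With 3 libraries of 2 pooled mice, the spread between single mice was not measured, and genes of a few UMIs per class cannot be resolved at this depth.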
